A study of Mus musculus with 9 samples.

Results

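Lysyl oxidase (Lox) and its relatives are copper-dependent enzymes that oxidise lysine side chains in collagen and in elastin, the step from which the cross-links between these matrix proteins form. Elastin (Eln) is the rubber-like protein that lets the lung recoil, and it is secreted as soluble tropoelastin, assembled on a scaffold of fibrillin microfibrils and fixed there by lysyl oxidase activity. In a fibrotic lung, cross-linking is known to make the deposited matrix stiffer and harder to degrade. The genes described here are Lox, Eln and every symbol starting with Loxl in the tables in which the authors listed changed probe sets. This rule found 4 probe sets of 41345 on the array, one each for Lox, Loxl2, Loxl3 and Eln. Of the 5 lysyl oxidase family genes of the mouse, Loxl1 and Loxl4 have no named probe set in those tables and were not analysed here.

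Total RNA of whole lung from male C57BL/6J mice was hybridised to Affymetrix whole-transcript arrays, 9 arrays in 3 groups of 3. The bleomycin plus homoharringtonine group was instilled through the trachea with 2 U/kg bleomycin, a DNA-breaking antibiotic that causes lung fibrosis in rodents, at 8 weeks of age. From day 5 these mice received 0.545 mg/kg homoharringtonine, a plant alkaloid that blocks translation elongation, into the peritoneum 2 times a week for 15 days. The bleomycin group had the same instillation and the drug's vehicle. The vehicle group is labelled vehicle-treated, and the shared protocol gives PBS as the alternative to bleomycin. Lungs were taken at 11 weeks of age in all groups, the labels name no pooling of animals, and no group had homoharringtonine without bleomycin.

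Array medians lay between 4.49 and 4.57 on the log2 scale, and no 2 arrays were identical. The lung epithelial markers that carried a name, namely Lamp3 and Abca3 of type 2 cells, Rtkn2 of type 1 cells and Cyp2f2 of club cells, had signals of 7.20 or more on every array. In whole lung, fewer cells of a type and less RNA per cell cannot be told apart, which holds for every gene below. With 3 arrays per group, the number of arrays limits the precision of every value.

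Lox itself, the founding enzyme of the family, had log2 signals of 7.72, 6.97 and 8.16 in the bleomycin plus homoharringtonine lungs, 9.19, 9.71 and 9.80 in the bleomycin lungs, and 6.62, 6.77 and 6.98 in the vehicle lungs. The bleomycin arrays lay above all others, and the lowest array with homoharringtonine fell inside the vehicle range while the other two lay above it. Lox averaged 9.57 ± 0.33 in bleomycin and 6.79 ± 0.18 in vehicle (SD, n = 3 each).

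Elastin, the substrate, had log2 signals of 9.30, 7.81 and 8.90 with homoharringtonine, 10.06, 10.02 and 10.34 with bleomycin alone, and 7.43, 7.49 and 7.57 with vehicle. Here the 3 groups did not overlap at all. Eln averaged 8.67 ± 0.77 with homoharringtonine, 10.14 ± 0.17 in bleomycin and 7.50 ± 0.07 in vehicle (SD, n = 3 each), so the spread was widest in the homoharringtonine group. The same array, homoharringtonine replicate 2, was the lowest of its group for both Lox and Eln.

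Loxl2, a secreted family member known for cross-linking basement membrane collagen IV, had log2 signals of 6.33, 5.94 and 6.36 with homoharringtonine. They were 6.12, 7.28 and 6.79 with bleomycin alone and 5.61, 6.04 and 5.57 with vehicle. The bleomycin arrays lay above the vehicle arrays, with replicate 1 close to them, and the homoharringtonine arrays overlapped both groups. Loxl3, a relative known for acting on collagen and for roles in mouse palate and spine development, had 6.03, 6.02 and 5.71 with homoharringtonine, 6.53, 6.79 and 6.54 with bleomycin alone, and 5.68, 5.68 and 5.80 with vehicle. Its bleomycin arrays stood above all others, and its homoharringtonine and vehicle arrays overlapped.

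**Figure D1:**
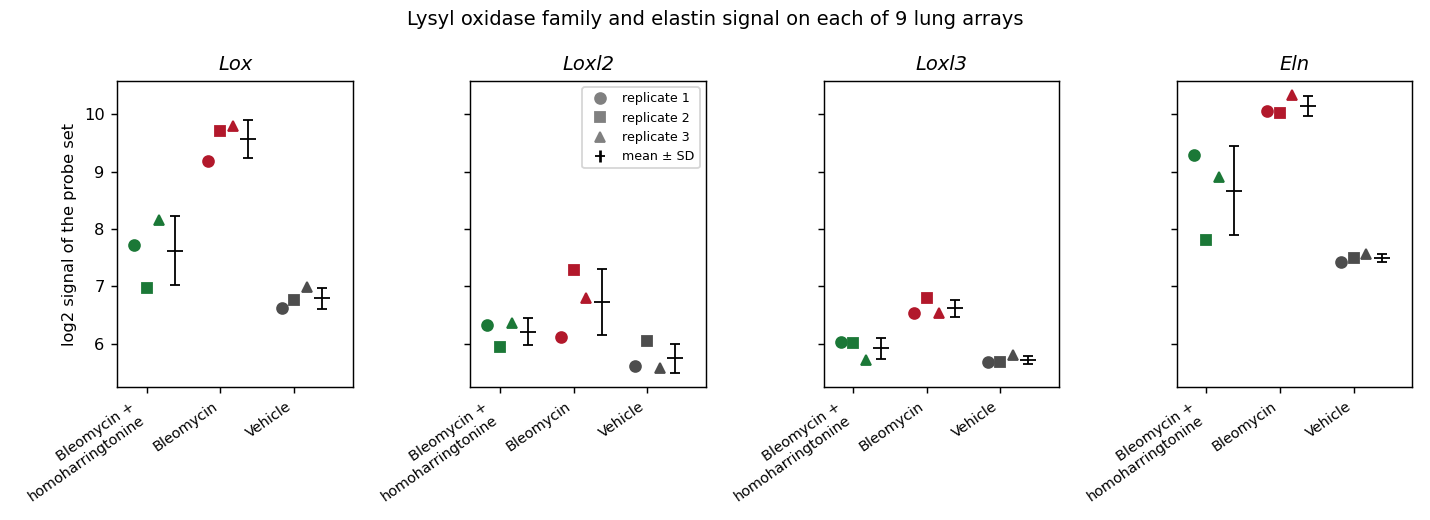
The log2 signal of Lox, Loxl2, Loxl3 and Eln on each array, with groups along the horizontal axis, one symbol per replicate and the group mean ± SD as bars. The bleomycin arrays of Lox (9.19 to 9.80) and Eln (10.02 to 10.34) lie above all arrays of the other groups. Probe sets differ in response, so levels are not comparable between genes.

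By the authors' tables, Eln (gene 13717) lies on the minus strand of chromosome 5 from 134702596 to 134747254, Loxl2 (gene 94352) on the plus strand of chromosome 14 from 69609068 to 69695834, and Loxl3 (gene 16950) on the plus strand of chromosome 6 from 83034173 to 83052564. These spans cover whole transcripts, on a genome build that the sources used here do not state. The probe sets hold 25 probes for Lox, 10 for Loxl2, 21 for Loxl3 and 19 for Eln, and all are of cross-hybridisation type 1, the class for probes that are unique to the gene.

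The comparison of bleomycin with vehicle asks how the fibrotic lung differs from the control lung. Lox and Eln rose by similar amounts with bleomycin, Loxl3 rose less, and Loxl2 was higher without passing the test. Lox was 6.85-fold higher, a log2 difference of 2.78 with a 95% interval of 2.12 to 3.43 and a limma adjusted p of 0.00179. Elastin was 6.25-fold higher, at 2.64 (1.91 to 3.37, limma adjusted p = 0.00313). Ranked by log2 rise over all 41345 probe sets, Lox stood at position 12 and Eln at position 17.

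Loxl3 was 1.86-fold higher with bleomycin, a log2 difference of 0.90 (95% interval 0.62 to 1.18, limma adjusted p = 0.00504). Loxl2 was 1.98-fold higher at 0.99 (0.36 to 1.62), with an adjusted p of 0.0673. The wider interval of Loxl2 goes with its spread in the bleomycin group, 0.58 against 0.15 for Loxl3 (SD of log2 signals, n = 3 each). Without bleomycin replicate 1, the array on which Loxl2 was lowest in that group, its difference was 1.29 with a limma adjusted p of 0.0148. This was the 1 fit that passed of 9 with an array left out, and the adjusted p reached 0.200 in the others.

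Limma called 7.78% of all probe sets in either direction. Of the 4 genes 3 were called higher, where 3.37% of all probe sets were, and for 4 of 4 the arrays did not overlap and were higher, as for 13.9% of all probe sets. A gene carries a name here only if the authors listed it as changed in some comparison, so these counts are not independent evidence of direction. All 4 genes appear in the authors' deposited table of bleomycin against vehicle, which lists 5.02% of the probe sets. The authors' deposited table gives folds of 6.85, 1.98, 1.86 and 6.25 for Lox, Loxl2, Loxl3 and Eln. The authors' deposited adjusted p, from a local pooled error test, is 5.16e-05 for Loxl2 and 0.00829 for Loxl3, and it is written as 0 for Lox and Eln.

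Setting bleomycin plus homoharringtonine against bleomycin alone asks whether cross-linking genes differed in fibrotic lungs given the drug. All 4 genes had lower means with homoharringtonine, and none passed the test over all probe sets. For Lox the log2 difference was -1.95 (95% interval -2.60 to -1.29), 3.85-fold lower, with a limma adjusted p of 0.0640. For Eln it was -1.47 (-2.20 to -0.74), 2.77-fold lower, with an adjusted p of 0.136. Loxl3 was 1.62-fold lower at -0.70 (-0.98 to -0.42, limma adjusted p = 0.0877), and Loxl2 was at -0.52 (-1.15 to 0.11, limma adjusted p = 0.541).

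Limma thus called 0 of the 4 genes, where 0.0943% of all probe sets were called and 0.0556% called lower, and 3 of 4 had an unadjusted p under 0.05, as 11.1% of all probe sets did. The arrays of Lox, Loxl3 and Eln did not overlap between the groups and were lower with homoharringtonine, as were those of 7.79% of all probe sets. By size of fall, Lox stood at position 13 and Eln at position 41 of 41345. The authors' deposited table for this comparison lists 0.281% of the probe sets and holds 2 of the 4 genes, Lox at a fold of -3.85 (adjusted p = 2.41e-07) and Eln at -2.77 (adjusted p = 0.0319). Their test pools error over genes of like signal, while the limma fit draws each gene's variance toward a value common to all probe sets. Whether the difference in calls comes from this was not tested.

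The Lox difference passed the threshold without bleomycin replicate 1, its lowest array in that group, at -2.14 and a limma adjusted p of 0.0467. This was the 1 fit that passed of 9 with an array left out, and the adjusted p reached 0.196 in the others. Of 8 alternatives other than leaving out an array, Lox and Loxl3 passed in 2 each, Eln in 1 and Loxl2 in 0. Testing only the brighter probe sets gave a limma adjusted p of 0.0284 for Lox and 0.0406 for Loxl3. A fit on only the 2 groups compared gave 0.256 for Lox, 0.281 for Loxl3 and 0.360 for Eln. Homoharringtonine replicate 2 had the largest share in the Eln difference, which was -1.04 without it, and Lox was then at -1.62.

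**Figure D2:**
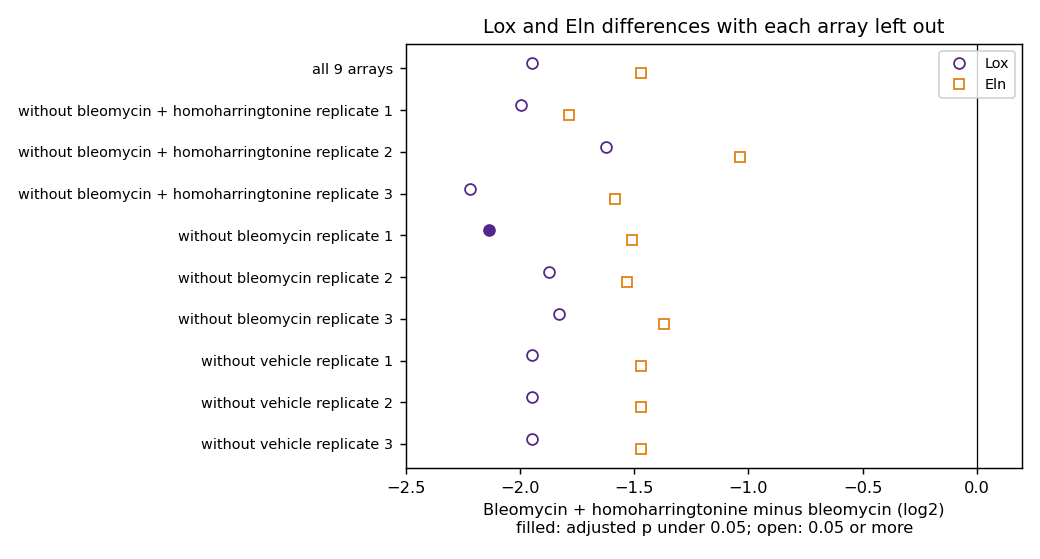
The log2 difference of Lox (circles) and Eln (squares) between bleomycin plus homoharringtonine and bleomycin, from all 9 arrays and with each array left out in turn. Lox stays between -2.22 and -1.62 and Eln between -1.79 and -1.04, and the filled symbol marks the single fit with an adjusted p under 0.05.

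The comparison of bleomycin plus homoharringtonine with vehicle asks how far the treated lung still stood from the control lung. Every one of the 4 genes had a higher mean in the homoharringtonine group than in the vehicle group, and limma called none. Elastin was 2.26-fold higher, a log2 difference of 1.17 (95% interval 0.44 to 1.91, limma adjusted p = 0.138). Lox was 1.78-fold higher at 0.83 (0.17 to 1.49, limma adjusted p = 0.222). Loxl2 was at 0.47 (-0.16 to 1.10, limma adjusted p = 0.448) and Loxl3 at 0.20 (-0.08 to 0.48, limma adjusted p = 0.473).

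In this comparison 0 of 4 genes passed, where 0.506% of all probe sets did and 0.193% were called higher, and 2 of 4 had an unadjusted p under 0.05, against 16% of all probe sets. Eln alone had arrays that were all higher with homoharringtonine than with vehicle, as 9.46% of all probe sets had. It is also the one gene of the 4 in the authors' deposited table, which lists 0.711% of the probe sets, at a fold of 2.26 and an adjusted p of 0.000323. Without homoharringtonine replicate 2, the lowest Eln array of that group, its log2 difference was 1.61, with a limma adjusted p of 0.0190. This was the 1 fit that passed of 9 with an array left out, and the adjusted p reached 0.336 in the others. The comparisons share arrays, so the values of one gene in them are not independent of each other.

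**Figure D3:**
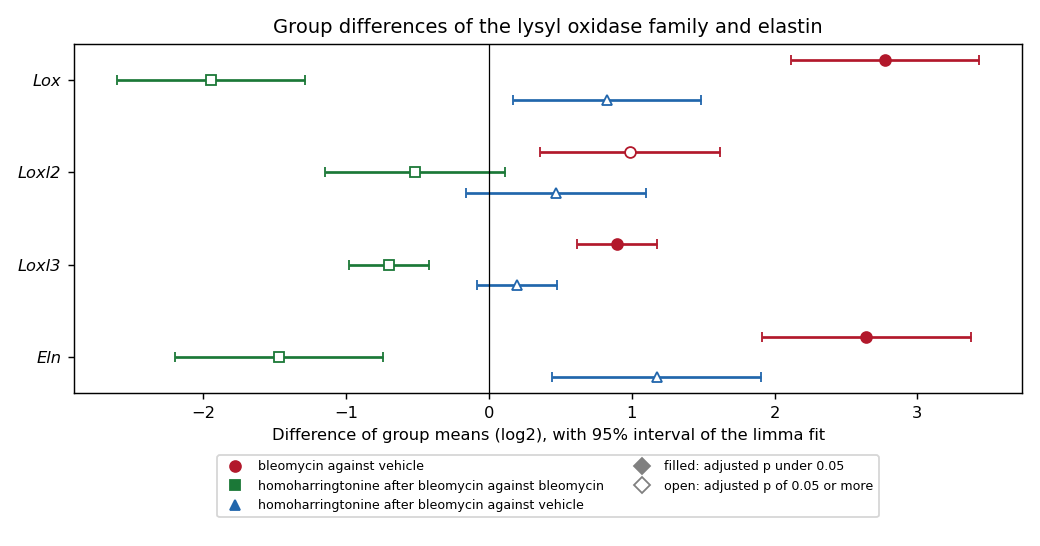
The log2 difference of group means with its 95% interval for each gene in the 3 comparisons, filled where the limma adjusted p was under 0.05. Lox, Loxl3 and Eln are filled for bleomycin against vehicle, and no gene is filled in the comparisons with homoharringtonine.

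Differences between genes on the same array show whether they moved by the same amount. The log2 signal of Lox less that of Eln averaged -1.05 ± 0.46 with homoharringtonine, -0.57 ± 0.28 in bleomycin and -0.71 ± 0.12 in vehicle (SD, n = 3 each). Between bleomycin and vehicle this quantity changed by 0.13 (SE 0.18), with a 2-sided exact permutation p of 0.6. Between homoharringtonine and bleomycin it changed by -0.48 (SE 0.31, exact permutation p = 0.3), so no difference between Lox and Eln was resolved in either comparison.

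Lox moved apart from its relatives. Lox less Loxl3 was 1.69, 0.95 and 2.46 with homoharringtonine, 2.65, 2.92 and 3.27 in bleomycin and 0.94, 1.09 and 1.18 in vehicle. Lox less Loxl2 averaged 1.41 ± 0.39 with homoharringtonine, 2.84 ± 0.35 in bleomycin and 1.05 ± 0.34 in vehicle (SD, n = 3 each). For both pairs the bleomycin arrays lay above all others, giving changes of 1.88 (SE 0.19) and 1.79 (SE 0.28) between bleomycin and vehicle, each with an exact permutation p of 0.1, the smallest that 3 arrays against 3 allow. After Benjamini-Hochberg adjustment over the 18 tests of 6 pairs in 3 comparisons, the lowest value was 0.3, so this design cannot place any of them past 0.05.

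**Figure D4:**
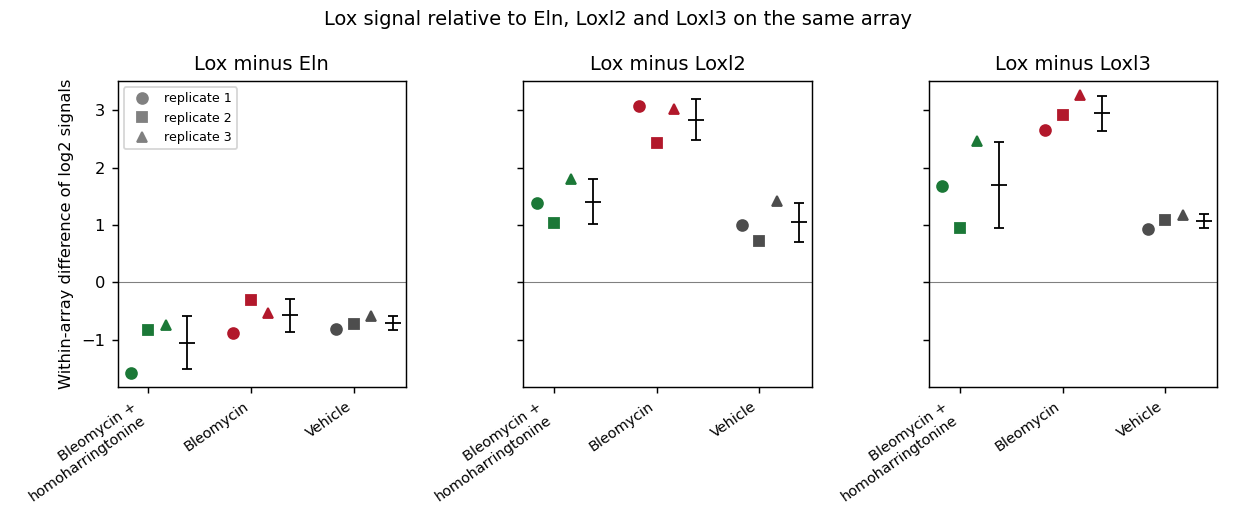
The log2 signal of Lox less that of Eln, Loxl2 or Loxl3 on the same array, by group, with one symbol per replicate and the mean ± SD as bars. Lox less Eln lies between -1.58 and -0.31 on all arrays, while Lox less Loxl2 and Lox less Loxl3 are higher on every bleomycin array than on any other array.

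The scaffold on which elastin is laid down was described from a list of 18 elastic fibre genes, 10 of which carried a name. With bleomycin limma called 7 of the 10 higher and 2 lower, where it called 3.37% of all probe sets higher and 7.78% in either direction. The median log2 difference of the 10 was 1.16, against 0.02 over all probe sets. A listed change was the condition for a name, so these counts and the median are not independent evidence. Fibronectin (Fn1), a matrix glycoprotein on which fibrillin assembly depends, rose 5.95-fold (log2 2.57, SE 0.20). Fibrillin-1 (Fbn1), the backbone of the microfibrils, rose 2.93-fold, and fibulin-2 (Fbln2), an elastin-binding protein, 2.84-fold. Fibulin-3 (Efemp1), which in mice is needed for elastic fibres of fascia, fell 2.46-fold and fibulin-1 (Fbln1), an elastin-binding relative, 1.57-fold, while Ltbp4, which helps to place elastin on microfibrils, had a log2 difference of -0.84 and an adjusted p of 0.0584.

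Between homoharringtonine and bleomycin 0 of these 10 passed and 7 had an unadjusted p under 0.05, where 0.0943% and 11.1% of all probe sets did. Fbn1 was at -0.86 (adjusted p = 0.0861), Fbln2 at -1.09 (0.1001), Fn1 at -1.04 (0.110) and Efemp1 at 1.03 (0.0803), each the limma log2 difference with its adjusted p. Fbln1 at 0.36 (0.448) and Ltbp4 at 0.35 (0.625) had positive differences as Efemp1 did, and Mfap5, a microfibril glycoprotein, was near 0. Against vehicle, Fn1 was called higher with homoharringtonine at 1.53 (limma adjusted p = 0.0288). It was the 1 gene of the 10 that passed, where 0.506% of all probe sets did.

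Genes of collagen folding, processing and cross-linking went both ways, on a list that also holds genes that are not enzymes, such as Fmod, Lum and Bgn. Of 29 genes 10 were named, and limma called 6 higher and 2 lower with bleomycin, with a median log2 difference of 0.82. Over all probe sets it called 3.37% higher and 7.78% in either direction, and a listed change was again the condition for a name. P4ha3, a prolyl hydroxylase subunit, rose 3.57-fold, and the lysyl hydroxylase Plod1, which makes the hydroxylysine used in stable cross-links, rose 1.73-fold. Another prolyl hydroxylase subunit, P4ha1, fell 2.22-fold, and Pcolce2, an enhancer of procollagen trimming, fell 4.34-fold. Bmp1, the protease that cuts procollagen and the Lox precursor into their active forms, rose 1.63-fold (adjusted p = 0.0259). With homoharringtonine 0 of 10 passed against bleomycin, and 7 had an unadjusted p under 0.05, where 0.0943% and 11.1% of all probe sets did. Against vehicle, P4ha1 was called lower at -0.65 (limma adjusted p = 0.0308) and was the 1 gene of this list that passed, where 0.506% of all probe sets did.

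Of 8 collagen chains that lysyl oxidases cross-link 7 were named, and 7 of 7 were called higher with bleomycin, as 3.37% of all probe sets were. Being named required a listed change, so this count was largely set in advance. Col1a1, the main fibrillar chain, rose 5.12-fold, Col5a2 4.12-fold, Col5a1 3.20-fold and the basement membrane chain Col4a1 2.51-fold. Against bleomycin alone, 0 of 7 passed with homoharringtonine and 7 of 7 had an unadjusted p under 0.05, where 0.0943% and 11.1% of all probe sets did. Their log2 differences ran from -1.10 to -0.43. Against vehicle, Col1a1 (1.37, limma adjusted p = 0.0404) and Col4a1 (0.83, 0.0424) were called higher with homoharringtonine, as 0.193% of all probe sets were.

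A list of 15 genes held proteases linked to elastin breakdown and protease inhibitors, of which Timp1 was the inhibitor that carried a name. With bleomycin 9 of 9 named genes were called higher. For all probe sets the share was 3.37%, and a listed change was again the condition for a name. Timp1 rose 12.8-fold and Ctsk, a collagen- and elastin-cutting cathepsin, 6.45-fold, with Ctsd at 2.64-fold and Ctsl at 2.52-fold. With homoharringtonine 0 of 9 passed against bleomycin and 5 had an unadjusted p under 0.05, where 0.0943% and 11.1% of all probe sets did. Timp1 was at a log2 difference of -1.90 (limma adjusted p = 0.130). Mmp12, the macrophage elastase, differed in sign from the others there at 0.27 (adjusted p = 0.877). Its log2 signals were 8.10, 8.01 and 8.65 with homoharringtonine, 9.05, 7.97 and 6.91 in bleomycin and 5.23, 5.21 and 5.61 in vehicle, so the first 2 groups overlapped. Against vehicle, 4 of the 9 were called higher with homoharringtonine, as 0.193% of all probe sets were. They were Mmp12 (2.90), Ctsk (2.01), Ctss (1.45) and Ctsd (1.26), each a log2 difference.

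A list of candidate Lox inducers and copper supply genes held 15 symbols, with Ctgf also under its other symbol Ccn2. Of these 3 were named, and 3 of 3 were called higher with bleomycin, as 3.37% of all probe sets were. A listed change was again the condition for a name. Ctgf, a TGF-beta-induced matricellular protein, rose 4.58-fold, the copper chaperone Atox1 2.00-fold, and Hif1a, the subunit of a hypoxia factor under which Lox is induced, 1.56-fold. Between homoharringtonine and bleomycin 0 of 3 passed and 1 had an unadjusted p under 0.05, where 0.0943% and 11.1% of all probe sets did. Ctgf was at a log2 difference of -0.89 there (limma adjusted p = 0.104). Against vehicle, Ctgf was called higher with homoharringtonine, at a log2 difference of 1.31 (limma adjusted p = 0.0283), as 0.193% of all probe sets were.

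**Figure D5:**
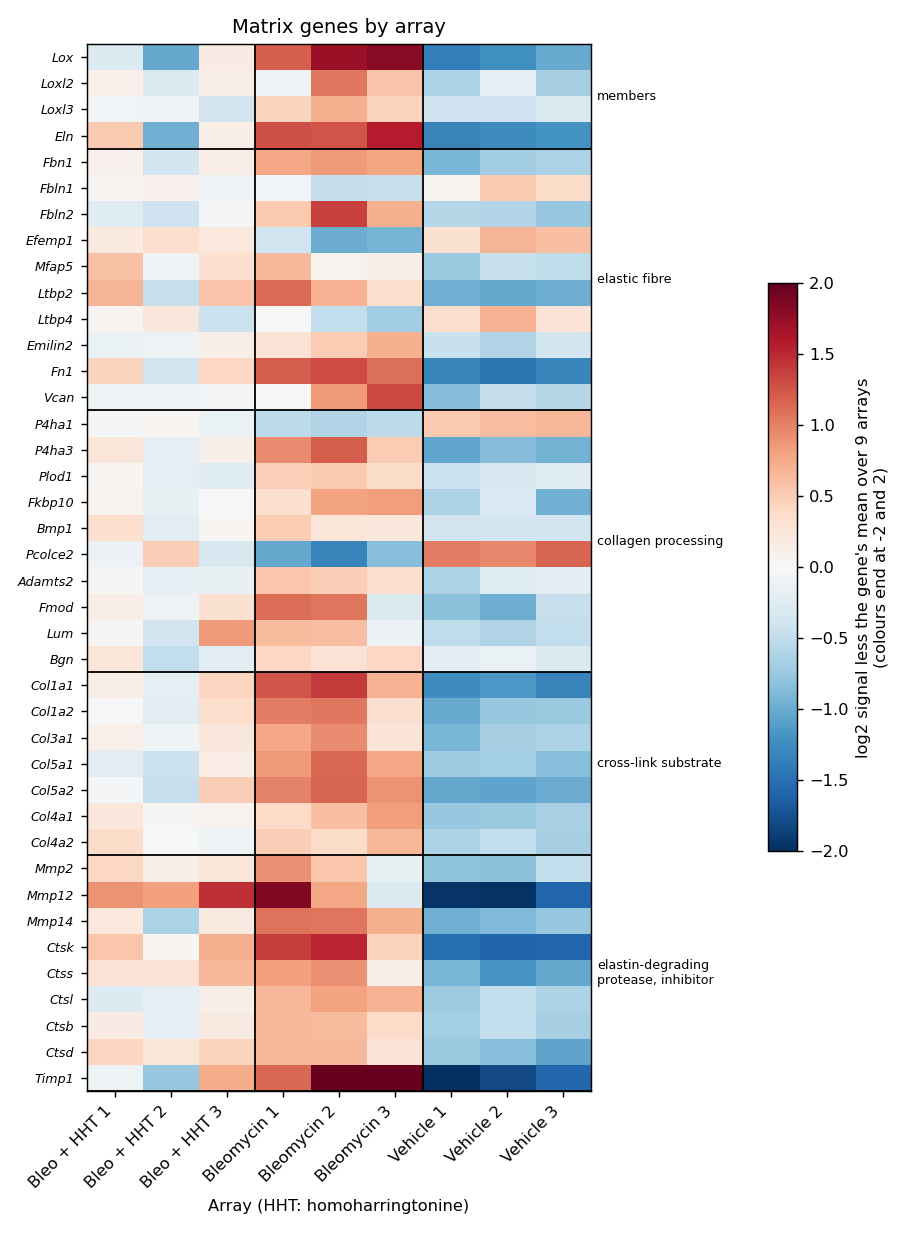
The log2 signal of each gene on each array less the gene's mean over the 9 arrays, for Lox, Loxl2, Loxl3, Eln and the named genes of 4 matrix lists, with homoharringtonine arrays on the left and vehicle arrays on the right. Most rows are highest in bleomycin and lowest in vehicle, while Fbln1, Efemp1, Ltbp4, P4ha1 and Pcolce2 run the other way.

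In the homoharringtonine group, the same array was the lowest for many of these genes. Homoharringtonine replicate 2, lowest of its group for Lox, Eln and Loxl2, was also the lowest for 18 of the 27 named elastic fibre, collagen processing and collagen chain genes (66.7%), against 31% of all probe sets. In the bleomycin group the order differed between genes. Bleomycin replicate 3 was the highest of its group for Lox and Eln, yet it was the lowest for 14 of the 27 genes (51.9%, against 31% of all probe sets). Col1a1, for example, had 10.56, 10.70 and 10.00 in the bleomycin lungs.

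Markers of other cells also differed between the groups, and some lists rose with bleomycin while others fell. These markers too carried a name only if the authors listed them as changed. Limma called 3.37% of all probe sets higher with bleomycin and 7.78% in either direction. All 6 named macrophage markers rose with bleomycin, and their mean log2 signal over the list was 7.76 to 8.22 on the homoharringtonine arrays, 8.48 to 9.05 on the bleomycin arrays and 6.36 to 6.49 on the vehicle arrays. Of 7 myofibroblast and smooth muscle markers 3 were named and rose, with list means of 6.93 to 7.07, 7.60 to 8.09 and 6.73 to 6.95 in the same order of groups. Of 7 resident fibroblast markers 3 were named, and Tcf21, Npnt and Inmt fell, with list means of 8.52 to 8.90 with homoharringtonine, 7.77 to 8.43 in bleomycin and 9.35 to 9.63 in vehicle. The 4 endothelial markers and the 3 of 6 named alveolar epithelial markers fell as well. Cardiac muscle markers, 3 of 6 named, had list means of 4.52 to 5.60 with homoharringtonine, 4.26 to 4.65 in bleomycin and 5.31 to 6.11 in vehicle. All 3 were lower with bleomycin than with vehicle. Limma called 2 of them, and Actc1 was at -1.43 with a limma adjusted p of 0.0713. The cardiac list means in bleomycin lay around the array medians of 4.49 to 4.57, so these markers had low signals there. The part of these cells in the Lox and Eln values was not tested.

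The genes whose profile over the 9 arrays was nearest to that of Lox were sought among 1598 other named probe sets, by the root mean square difference of log2 signals after each gene's mean was removed. The nearest were Fst (follistatin, an activin inhibitor) at 0.27, Serpina3n (an acute-phase protease inhibitor) at 0.27, Cd109 (a TGF-beta co-receptor) at 0.30, Eln at 0.33 and Mt1 (a metallothionein) at 0.36. For Eln they were Fn1 at 0.28, Serpina3n at 0.29, Mt1 at 0.30, Lox at 0.33 and the complement subunit C1qb at 0.35. Lox and Eln were thus each the fourth nearest of the other, and counting all probe sets with or without a name did not change this rank. Loxl2 and Loxl3 ranked 256 and 336 for Lox. The measure favours genes with changes of the same size, and 9 arrays in 3 groups give it few independent points.

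Of the genes nearest to Lox, Fst and Serpina3n passed the test between homoharringtonine and bleomycin, at log2 differences of -1.98 (limma adjusted p = 0.0439) and -1.54 (0.0260). Cd109 at -2.22 (0.0682) and Mt1 at -1.34 (0.0712) did not pass, as Lox and Eln did not. Over all probe sets 0.0943% passed in this comparison. The nearest genes were picked for a profile like that of Lox, so their falls are not separate evidence of the Lox fall.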

How the data were processed

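Upstream, the submitters' processing notes name Affymetrix Power Tools and R 3.5.1; normalization and genome build are not stated there or elsewhere in the sources. The authors deposited log2 signals of 41345 probe sets for each array. Their comparison tables give, per the file headers, a linear fold with a sign, the score of a local pooled error test and its adjusted p-value. All 14904 log2 values listed there matched the value table to within 1e-06.

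Gene names come only from those tables, where 2010 of 2129 listed probe sets have a symbol, so a named gene is one the authors listed as changed. The members and the gene lists were chosen with earlier results of these data known. Groups follow the sample titles. Limma 3.58.1 in R 4.3.3 fitted group means to all 9 arrays and all probe sets (6 residual degrees of freedom), followed by eBayes. Tests were 2-sided, and p-values were adjusted by Benjamini-Hochberg over all probe sets of a comparison and called at 0.05. The script was tested on simulated data. Genes with several probe sets were read at the brightest. Named were the members, up to 4 genes per list with the smallest p in bleomycin against vehicle, those that differed in sign from the rest of their list, and the 5 nearest profiles. Bmp1 and Ctss were named after their values were seen. The labels do not say that the replicates of a group are separate animals, so p-values measure the spread between these arrays. The alternatives covered the arrays fitted, the prior, array weights, scaling, a filter on dim probe sets, the replicate number, single arrays left out and the set adjusted over. The planned choice among several probe sets of a member did not apply, since each had 1.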

Additional observations from a re-analysis of the deposited data

How the results depend on the processing

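Every difference of Lox, Loxl2, Loxl3 and Eln kept its sign in all alternatives, and the calls of Lox, Loxl3 and Eln for bleomycin against vehicle held in each. The values with 1 array left out were 2.66 to 2.96 for Lox, 0.81 to 0.94 for Loxl3 and 2.54 to 2.70 for Eln. For Loxl2 they were 0.71 to 1.29, and it passed among brighter probe sets (0.99, adjusted p = 0.0354) and with adjustment over named probe sets (0.99, 0.00570). For homoharringtonine against bleomycin, adjustment over named probe sets brought Lox (-1.95, adjusted p = 0.00367), Loxl3 (-0.70, 0.0101) and Eln (-1.47, 0.00959) past the threshold, and testing brighter probe sets brought Lox (-1.95, 0.0284) and Loxl3 (-0.70, 0.0406) past it. Both alternatives also refitted the limma prior on the probe sets kept, and named probe sets were chosen by the authors for a change on these arrays. Of 8 alternatives other than leaving out an array, Lox and Loxl3 passed in 2 each and Eln in 1. With 1 array left out the differences were -2.22 to -1.62 for Lox, -0.76 to -0.59 for Loxl3, -1.79 to -1.04 for Eln and -0.82 to -0.24 for Loxl2. For homoharringtonine against vehicle, adjustment over named probe sets brought Eln (1.17, 0.0148) and Lox (0.83, 0.0355) past it, and the ranges were 0.86 to 1.61 for Eln and 0.56 to 1.15 for Lox.

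Over the array limma called 3218, 39 and 209 probe sets for bleomycin against vehicle, homoharringtonine against bleomycin and homoharringtonine against vehicle. With 1 array left out the counts were 1136 to 3396, 0 to 181 and 7 to 257, with 0 in 6 of 9 fits of the second comparison, where 3897 to 5318 had an unadjusted p under 0.05. Adjustment over named probe sets gave 1940, 721 and 1091. Testing brighter probe sets gave 239 and 668 in the comparisons with homoharringtonine, and array weights 16 and 385. A fit on only the 2 groups compared gave 0 for homoharringtonine against bleomycin, with 3817 at an unadjusted p under 0.05. The replicate block gave 2175, 0 (4410 unadjusted) and 22, and arrays of the same number correlated by -0.14 to 0.09 after group means were removed, so the numbers were not taken to pair animals. Quantile normalization turned the sign of Bgn (homoharringtonine against vehicle) and median centring that of Mfap5 (homoharringtonine against bleomycin). The cause of these shifts was not tested.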

Other observations

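The replicates 1 and 2 of the vehicle group held the same Loxl3 signal to all decimals given. Such ties occurred at 4.62% of all probe sets for this pair of arrays. The gene ontology terms that the authors' tables attach to Lox (11 biological process terms) and Eln (4) had none in common, while Lox and Loxl2 (18 terms) shared 2, collagen fibril organization and oxidation-reduction process.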
